A study of Homo sapiens with 8 samples.

Results

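Receptor tyrosine kinases are the membrane receptors through which cells read most peptide growth factors, and 45 of their genes were followed here in NCI-H1299 (H1299) and NCI-H2009 (H2009), a pair of human lines labelled as lung adenocarcinoma, after knockdown of PTK7. PTK7 itself is a member of the family that lacks catalytic activity, and it was set apart as the targeted gene. The list held 49 receptor genes. A gene entered through probe sets annotated with its symbol alone, and where it had several the one brightest over the 8 arrays was used. That left 45 receptors among 18404 genes measured in all, while EPHB2, RET, ROS1 and ALK were not analysed here.

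Each line was infected for 2 days with lentivirus carrying a short hairpin RNA, kept in puromycin for 2 days and harvested on day 4 after infection. There were 4 groups of 2 arrays: H1299 with PTK7 hairpins, H1299 with control hairpins, H2009 with PTK7 hairpins and H2009 with control hairpins. The PTK7 groups held hairpins PTK7-1 and PTK7-2, and the control groups held 1 hairpin against GFP and 1 against luciferase (LUC). Each hairpin was read on 1 array per line, so the spread within a group includes the difference between its hairpins. Repeat cultures are not mentioned in the labels, and the p-values below cover only the variation among these 8 arrays, which may be technical. Pairs of values are given below as PTK7-1 and PTK7-2 for the PTK7 hairpins, and as GFP and LUC for the control hairpins. Values are log2 signals made by the authors with RMA, which compresses differences of dim genes. A level was therefore compared between arrays for the same gene, and the median over genes served only to mark dim signals. In such bulk RNA, fewer cells carrying a transcript and less of it per cell cannot be told apart. A difference was called where its limma p, adjusted over all 18404 genes by Benjamini-Hochberg, was below 0.05, and errors after ± are standard errors of the fit.

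A ligand brings a pair of such receptors together, their kinase domains phosphorylate each other, and adaptor proteins dock on the phosphorylated tails and switch on RAS and PI3K signalling. Subfamilies differ in ligand: ERBB receptors bind EGF-like factors, MET binds hepatocyte growth factor, AXL and its relatives bind GAS6 and protein S, and EPH receptors bind ephrins on the neighbouring cell. In lung adenocarcinoma EGFR, MET, ERBB2 and ALK are familiar as mutated, amplified or rearranged drivers, and AXL is known from resistance to EGFR inhibitors.

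The targeted gene checked the labels. PTK7 read 5.63 and 5.53 with the PTK7 hairpins and 5.73 and 6.03 with the control hairpins in H1299, and 5.63 and 5.94 with the PTK7 hairpins and 6.64 and 6.86 with the control hairpins in H2009. Both PTK7 arrays lay below both control arrays in each line, as they did for 4.53% of all genes. From the line's control mean they lay at -0.26 and -0.35 in H1299, a smaller drop than the -1.11 and -0.81 in H2009. In H1299 PTK7 lay below the median gene, at 6.32, with the control hairpins too, so its drop there may be compressed. The averaged difference of -0.63 ± 0.12 did not pass the threshold (limma adjusted p = 0.19). The labelled epithelial origin was plain in H2009 and weak in H1299. CDH1, the epithelial cadherin, lay between 3.92 and 4.19 over the 4 H1299 arrays and between 11.2 and 11.4 over the 4 H2009 arrays, and EPCAM, another epithelial adhesion protein, between 3.32 and 3.58 in H1299 and between 11.2 and 11.3 in H2009. Of 6 epithelial markers, 2 (KRT8 and KRT18) lay above the median gene on all H1299 arrays and 6 did so on all H2009 arrays. The lung adenocarcinoma and alveolar markers bore out the label less. Of 4 measured, 0 lay above the median gene on all H1299 arrays and 1 (NKX2-1) on all H2009 arrays. NAPSA, SFTPB and SFTPC stayed below it on every array. Of 6 endothelial markers none lay above the median gene on all arrays of either line, and of 6 leukocyte markers 1 did so on all H1299 arrays and 2 on all H2009 arrays. PTPRC, the pan-leukocyte marker, lay between 2.78 and 3.01, and CD68, a lysosomal protein of macrophages, between 7.76 and 10.48.

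Most receptor genes were dim, and most of the dim ones were flat. The same counts were not made over all genes, so they do not set receptors apart from other genes. The median gene had a mean of 6.32 over the 8 arrays, and 26 of the 45 receptors stayed below it on every array. In 23 of these 26 the 8 arrays spanned less than 1 log2 unit, and the narrowest was PDGFRB, a receptor for platelet-derived growth factor, at 0.17. The 3 dim receptors with a wider span were EPHA3 at 2.18, EPHA7 at 1.17 and KDR at 1.06. Another 10 receptors stayed above the median gene on every array: EGFR, ERBB2, MET, AXL, MERTK, TYRO3, IGF1R, DDR1, EPHA2 and EPHB4. The remaining 9 (ERBB3, MST1R, FGFR1, FGFR4, INSR, KIT, EPHA1, EPHA4 and EPHB3) lay above it on some arrays and below it on others.

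**Figure D1:**
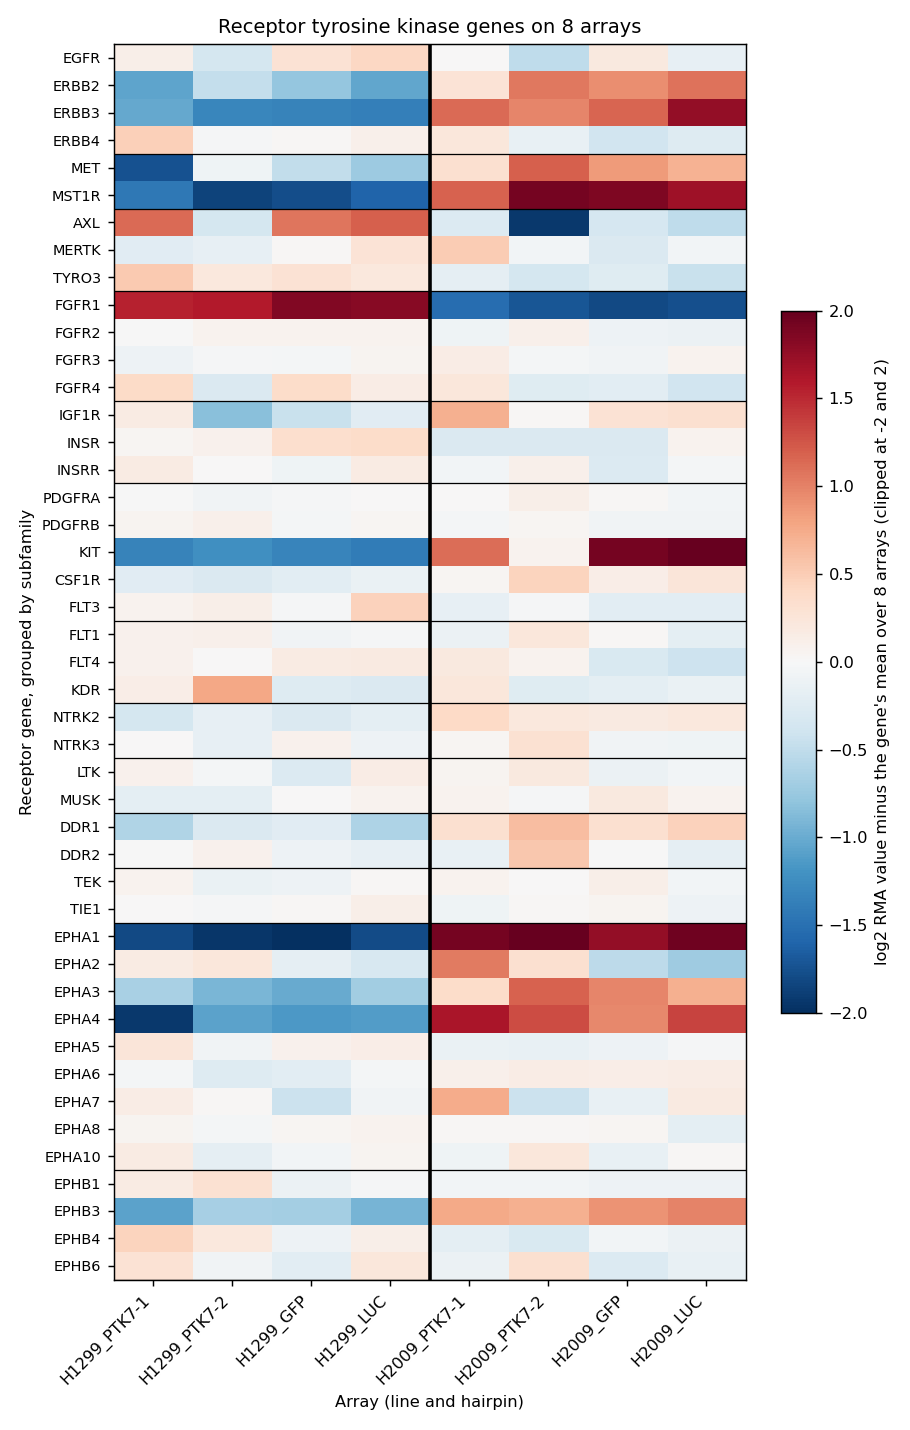
Colours show the log2 RMA value of each of the 45 receptor genes minus that gene's mean over the 8 arrays, clipped at -2 and 2, with 1 column per array and 1 row per gene, grouped by subfamily. FGFR1 and AXL are the deepest contrasts towards H1299 and EPHA1, MST1R, KIT, EPHA4 and ERBB3 towards H2009, while 29 of the 45 genes span less than 1 log2 unit.

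The lines were compared to see which receptors each brought to the experiment. H1299 had more FGFR1 and TYRO3 transcript than H2009, whichever kind of hairpin the cells held. It likewise had less of EPHA1, MST1R, KIT, ERBB3, EPHA4, ERBB2, EPHB3, EPHA3, DDR1 and NTRK2. The calls of TYRO3, DDR1 and NTRK2 were the least firm, as given below. Under PTK7 hairpins 13 of the 45 receptors passed the limma test, 3 higher and 10 lower in H1299, where 24.5% of all genes passed, 13.2% higher and 11.3% lower. Under control hairpins, on arrays the first comparison did not use, 13 again passed, 3 higher and 10 lower, where 24.8% of all genes did, 12.5% higher and 12.3% lower. The 2 comparisons share a spread estimated over all 8 arrays. In both, 2 receptors passed as higher and 10 as lower in H1299, which is 4.44% and 22.2% of the receptors, against 9.5% and 9.35% of all genes. These 12 were 26.7% of the receptors, against 18.9% of all genes. The receptor called under one kind of hairpin alone was EPHB4 at 0.57 ± 0.14 under PTK7 hairpins and FLT4 at 0.52 ± 0.12 under control hairpins. The median difference of the 45 receptors was -0.08 under PTK7 hairpins and 0.03 under control hairpins, against -0.01 and 0.06 over all genes. All 4 H1299 arrays lay above all 4 H2009 arrays for 3 receptors, against 19% of all genes, and below them for 13, against 16.2%.

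EPH receptors, the largest family on the list, made up 4 of the 10 that were lower in H1299. EPHA1, an A-class receptor, read 4.59 and 4.45 with the PTK7 hairpins and 4.06 and 4.61 with the control hairpins in H1299, against 8.30 and 8.64 with the PTK7 hairpins and 8.15 and 8.34 with the control hairpins in H2009. No array of either line came within 3 log2 units of the other line. The difference was -3.95 ± 0.21 under PTK7 hairpins and -3.91 ± 0.21 under control hairpins (limma adjusted p = 3.33e-05 and 3.33e-05), or 15.5-fold and 15.1-fold. EPHA4, which binds ephrins of both classes, read 3.66 and 4.51 with the PTK7 hairpins and 4.44 and 4.47 with the control hairpins in H1299 and 7.22 and 6.89 with the PTK7 hairpins and 6.55 and 6.93 with the control hairpins in H2009. Here the lines stood further apart under PTK7 hairpins, at -2.97 ± 0.28, than under control hairpins, at -2.29 ± 0.28, and H1299 with PTK7-1 held the lowest value of all. The gap between these values, -0.68 ± 0.40, did not pass (limma adjusted p = 0.922). EPHB3, a B-class receptor, read 4.59 and 5.0 with the PTK7 hairpins and 4.99 and 4.73 with the control hairpins in H1299 and 6.42 and 6.37 with the PTK7 hairpins and 6.56 and 6.65 with the control hairpins in H2009. Its difference was -1.60 ± 0.17 under PTK7 hairpins and -1.74 ± 0.17 under control hairpins (limma adjusted p = 6.86e-04 and 4.56e-04). EPHA3 was dim in both lines, at 3.81 and 3.54 with the PTK7 hairpins and 3.45 and 3.77 with the control hairpins in H1299, against 4.82 and 5.64 with the PTK7 hairpins and 5.44 and 5.17 with the control hairpins in H2009. The groups did not overlap, and the lines differed by -1.56 ± 0.27 and -1.70 ± 0.27 (limma adjusted p = 0.00628 and 0.00431).

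**Figure D2:**
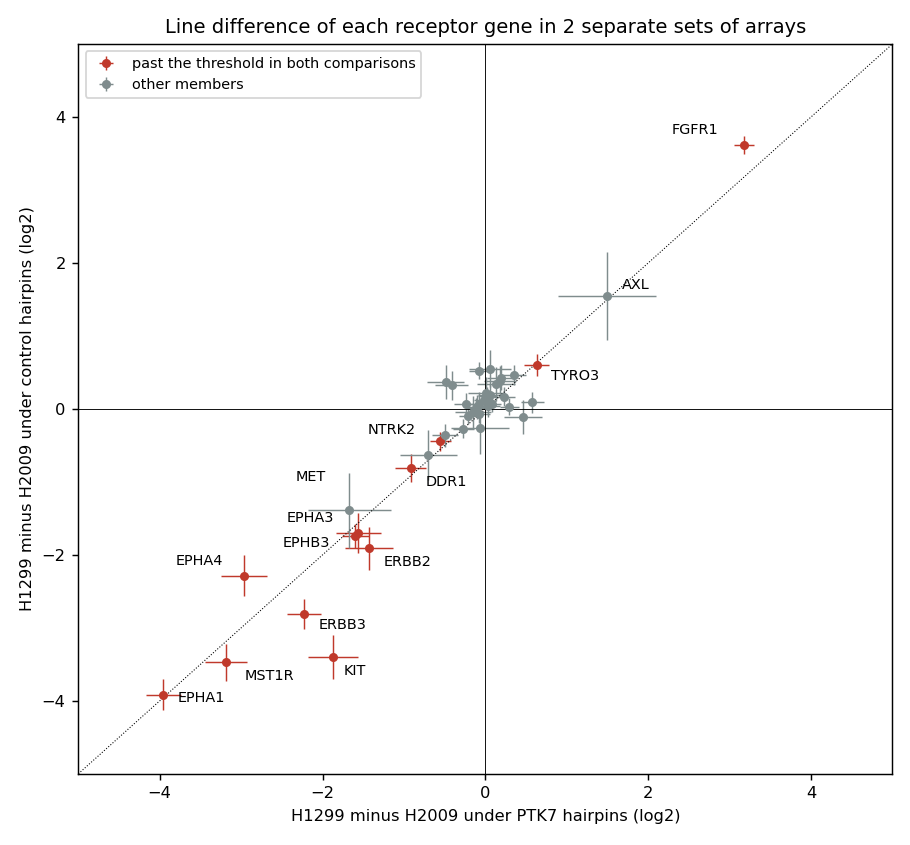
Each point is 1 of the 45 receptor genes, plotted by its H1299 minus H2009 difference in log2 units, with PTK7 hairpins on the x axis and control hairpins on the y axis; bars are standard errors of the fit and red marks the 12 genes past the threshold in both comparisons. FGFR1 stands alone at the upper right, at 3.18 with PTK7 hairpins and 3.62 with control hairpins, and EPHA1 and MST1R lie at the lower left.

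MST1R, or RON, is the receptor for macrophage-stimulating protein and the close relative of MET. It read 5.12 and 4.70 with the PTK7 hairpins and 4.77 and 4.94 with the control hairpins in H1299, against 7.73 and 8.46 with the PTK7 hairpins and 8.42 and 8.24 with the control hairpins in H2009, a difference of -3.18 ± 0.25 under PTK7 hairpins and -3.47 ± 0.25 under control hairpins (limma adjusted p = 2.06e-04 and 1.27e-04). The lines did not overlap, and no other receptor but EPHA1 stood as far below H2009 when both comparisons are averaged. KIT, the receptor for stem cell factor, was flat and dim in H1299 at 3.74 and 3.85 with the PTK7 hairpins and 3.76 and 3.68 with the control hairpins. In H2009 it reached 6.18 and 5.15 with the PTK7 hairpins and 6.99 and 7.24 with the control hairpins. The lines stood -1.87 ± 0.31 apart under PTK7 hairpins and -3.40 ± 0.31 apart under control hairpins (limma adjusted p = 0.00466 and 3.34e-04). The 4 H2009 values of KIT were themselves spread over 2.08 log2 units, with both PTK7 arrays at the low end.

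In the ERBB subfamily ERBB2 and ERBB3 were lower in H1299, and EGFR and ERBB4 did not pass. ERBB3, a neuregulin receptor with a weak kinase, read 5.61 and 5.31 with the PTK7 hairpins and 5.30 and 5.25 with the control hairpins in H1299, against 7.76 and 7.61 with the PTK7 hairpins and 7.79 and 8.38 with the control hairpins in H2009. ERBB2, which has no known ligand and pairs with the other ERBB receptors, read 6.84 and 7.43 with the PTK7 hairpins and 7.13 and 6.85 with the control hairpins in H1299, against 8.17 and 8.95 with the PTK7 hairpins and 8.82 and 8.98 with the control hairpins in H2009. All H1299 arrays lay below all H2009 arrays for both genes. The difference of ERBB3 was -2.22 ± 0.21 and -2.81 ± 0.21 under PTK7 and control hairpins, and that of ERBB2 was -1.43 ± 0.29 and -1.91 ± 0.29 (limma adjusted p of ERBB2 = 0.0118 and 0.00346). EGFR read 8.18 and 7.71 with the PTK7 hairpins and 8.36 and 8.47 with the control hairpins in H1299 and 8.08 and 7.55 with the PTK7 hairpins and 8.25 and 7.89 with the control hairpins in H2009. Its lines overlapped, with differences of 0.13 ± 0.24 and 0.34 ± 0.24. ERBB4 was dim in both lines, between 4.37 and 4.87 in H1299 and between 4.01 and 4.63 in H2009.

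DDR1, a collagen receptor of epithelial cells, read 7.62 and 7.95 with the PTK7 hairpins and 8.01 and 7.62 with the control hairpins in H1299, against 8.56 and 8.85 with the PTK7 hairpins and 8.54 and 8.69 with the control hairpins in H2009, and its differences were -0.92 ± 0.19 and -0.80 ± 0.19 under PTK7 and control hairpins (limma adjusted p = 0.013 and 0.0212). A second, dimmer probe set of DDR1 disagreed, at 0.63 and -0.03. NTRK2, the receptor for brain-derived neurotrophic factor, was dim throughout, between 3.48 and 3.66 in H1299 and between 4.01 and 4.22 in H2009. Its differences of -0.56 ± 0.13 and -0.44 ± 0.13 passed narrowly (limma adjusted p = 0.02 and 0.0465), and the one under control hairpins did not pass once hairpins were blocked (limma adjusted p = 0.0614).

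FGFR1, a fibroblast growth factor receptor, was the receptor furthest above H2009. It read 8.59 and 8.64 with the PTK7 hairpins and 8.90 and 8.87 with the control hairpins in H1299, against 5.53 and 5.34 with the PTK7 hairpins and 5.24 and 5.30 with the control hairpins in H2009. The H2009 values lay below the median gene and the H1299 values well above it. The difference was 3.18 ± 0.12 under PTK7 hairpins and 3.62 ± 0.12 under control hairpins, or 9.06-fold and 12.3-fold (limma adjusted p = 6.64e-06 and 3.68e-06). TYRO3, a receptor for GAS6 and protein S, read 7.95 and 7.64 with the PTK7 hairpins and 7.72 and 7.64 with the control hairpins in H1299 and 7.25 and 7.07 with the PTK7 hairpins and 7.19 and 6.98 with the control hairpins in H2009. The lines did not overlap, by a smaller margin: 0.63 ± 0.15 and 0.60 ± 0.15 (limma adjusted p = 0.0243 and 0.0286). Like the 10 receptors lower in H1299, the mean of the 6 epithelial markers was lower there. It lay between 6.22 and 6.79 over the H1299 arrays, against 11.2 to 11.3 over the H2009 arrays. Of these markers KRT18 overlapped between the lines, between 10.56 and 11.61 in H1299 and between 11.26 and 11.42 in H2009. The part of the markers in the receptor differences was not tested.

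Not every one of these calls held when an array was left out. Under PTK7 hairpins the count of receptors called ran from 11 to 15, and that of all genes from 3407 to 4395 of 18404, against 4510 with every array. Under control hairpins the receptors ran from 9 to 14 and all genes from 2196 to 5298, against 4566. Among the 12 receptors, DDR1, NTRK2 and TYRO3 were the ones that lost a call this way. Under PTK7 hairpins DDR1 and TYRO3 lost it without H1299 PTK7-1 or H2009 PTK7-2, and NTRK2 without H1299 PTK7-1, H2009 PTK7-1, H2009 GFP or H2009 LUC, with limma adjusted p between 0.0505 and 0.108. The control-hairpin calls of TYRO3 and NTRK2 were lost on omission of any of the 4 control arrays, TYRO3 with limma adjusted p between 0.0797 and 0.195 and NTRK2 between 0.113 and 0.220. DDR1 lost that call without H1299 LUC, H2009 GFP or H2009 LUC (limma adjusted p of 0.123, 0.0838 and 0.139).

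AXL, MET and IGF1R differed between the lines by more than 0.6 log2 units without passing, and each passed once the hairpin was fitted as a block. AXL was 1.5 ± 0.60 and 1.55 ± 0.60 under PTK7 and control hairpins (limma adjusted p = 0.124 and 0.113, and 5.06e-04 and 4.15e-04 with the block). For MET the differences were -1.67 ± 0.51 and -1.39 ± 0.51 (limma adjusted p = 0.0544 and 0.0976, and 0.00124 and 0.00257 with the block). For IGF1R they were -0.70 ± 0.35 and -0.63 ± 0.35, with blocked limma adjusted p of 0.0115 and 0.0169. With the block 16 receptors were called under PTK7 hairpins and 17 under control hairpins, where 31.5% and 31.3% of all genes were.

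The 250 bases before the start of 2 receptors from the line comparison are shown because these genes were lower in every H1299 array by the widest margins. They come from RefSeq on GRCh38.p14 and read 5′ to 3′ on the gene's strand. EPHA1 is at chr7:143408857-143409106 and MST1R at chr3:49903874-49904123, both on the minus strand. Capitals mark an E-box, CAGGTG, which is the kind of site bound by ZEB and SNAIL repressors, and GC boxes, GGGCGG, on either strand.
EPHA1: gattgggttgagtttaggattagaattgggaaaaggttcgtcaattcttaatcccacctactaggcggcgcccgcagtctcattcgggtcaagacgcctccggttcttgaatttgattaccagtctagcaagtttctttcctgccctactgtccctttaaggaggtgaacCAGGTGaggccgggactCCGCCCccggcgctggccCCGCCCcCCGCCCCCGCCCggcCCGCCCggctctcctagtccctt
MST1R: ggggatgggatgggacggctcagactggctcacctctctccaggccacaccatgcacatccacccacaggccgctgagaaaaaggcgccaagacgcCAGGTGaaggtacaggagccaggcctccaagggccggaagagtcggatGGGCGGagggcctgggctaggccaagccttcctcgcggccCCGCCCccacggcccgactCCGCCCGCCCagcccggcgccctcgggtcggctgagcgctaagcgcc
Each window held 1 E-box and several GC boxes. Of 68 windows for the 40 receptors that matched, 13 held CAGGTG (19.1%), against 17.5% of all 35116 windows of that length. The GC box was in 41 of the 68 (60.3%), against 42.6% of all windows. A match is a description of the letters and not a measured site.

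The PTK7 knockdown was then asked of each receptor, first averaged over the lines. No receptor passed the limma test, as none of the 18404 genes did, so 0% were called. At an unadjusted p under 0.05 there were 3 receptors, EPHA2 and KDR higher and KIT lower, which is 6.67% of the 45 against 9.88% of all genes. When the hairpin was fitted as a block, limma called 149 genes (0.81%), and AXL alone among the receptors. For knockdown this block takes the difference between hairpins of a kind out of the error, so blocked p-values cover only these hairpins. Of the 45 receptors 26 were higher and 19 lower, with a median of 0.03, against 10263 and 8141 of all genes with a median of 0.02. Both PTK7 arrays lay above both control arrays in both lines for 3 receptors, EPHA2, EPHB1 and PDGFRB, against 4.93% of all genes. They lay below them in both lines for INSR and MUSK, 2 receptors, against 4.53% of all genes. PTK7 itself was among those left uncalled, so an uncalled receptor is not thereby shown to be the same with and without knockdown.

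EPHA2, a receptor for A-class ephrins that is common on carcinoma cells, was the receptor with the highest averaged difference. It read 9.18 and 9.24 with the PTK7 hairpins and 8.84 and 8.71 with the control hairpins in H1299, and 10.06 and 9.34 with the PTK7 hairpins and 8.50 and 8.31 with the control hairpins in H2009. All 4 PTK7 arrays stood above all 4 control arrays, and H2009 with PTK7-1 was the highest. The averaged difference was 0.87 ± 0.16 (limma adjusted p = 0.19, and 0.0531 with the block). In H1299 it was 0.44 ± 0.23 and in H2009 1.29 ± 0.23 (limma adjusted p = 0.772 and 0.222). The difference between these, -0.85 ± 0.32, did not pass (limma adjusted p = 0.922). Over all alternatives the averaged value lay between 0.69 and 1.05, with adjusted p between 0.0531 and 0.792 (limma).

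The 250 bases before EPHA2 are printed because all PTK7 arrays exceeded all control arrays for this gene. They lie at chr1:16156070-16156319 on the minus strand of GRCh38.p14 in RefSeq, and capitals mark a cyclic AMP response element, TGACGTCA, and a GC box.
EPHA2: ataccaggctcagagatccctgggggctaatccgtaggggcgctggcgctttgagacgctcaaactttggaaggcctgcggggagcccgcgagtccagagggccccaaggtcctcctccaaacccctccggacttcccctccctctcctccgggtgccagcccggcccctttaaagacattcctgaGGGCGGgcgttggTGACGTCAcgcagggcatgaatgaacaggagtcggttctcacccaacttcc
The element began 51 bases before the start. It was in 2 of the 68 receptor windows (2.94%), against 1.65% of all windows. The AP-1 motif TGANTCA, searched on both strands as well, was in 6 of the 68 (8.82%), against 6.57% of all windows, and not in this one.

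KIT was the receptor with the widest difference in H2009. Its values there, given with the lines, did not overlap between PTK7 and control hairpins. The difference was -1.45 ± 0.31 (limma adjusted p = 0.304), or 2.73-fold, and PTK7-2 lay further from the controls than PTK7-1. In H1299, where KIT was dim, the difference was 0.08 ± 0.31. The average over the lines was -0.69 ± 0.22 (limma adjusted p = 0.36), and the difference between the lines, 1.53 ± 0.43, did not pass (limma adjusted p = 0.855).

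The VEGF receptors, known from endothelium, were dim in both lines. KDR read 4.10 and 4.73 with the PTK7 hairpins and 3.70 and 3.67 with the control hairpins in H1299 and 4.18 and 3.73 with the PTK7 hairpins and 3.76 and 3.83 with the control hairpins in H2009. In H1299 both PTK7 arrays lay above both controls, PTK7-2 furthest, and in H2009 they lay on either side of them. The averaged difference was 0.44 ± 0.16 (limma adjusted p = 0.431). FLT4, the receptor of lymphatic vessels, read 4.82 and 4.73 with the PTK7 hairpins and 4.89 and 4.90 with the control hairpins in H1299 and 4.92 and 4.80 with the PTK7 hairpins and 4.43 and 4.32 with the control hairpins in H2009. The PTK7 arrays lay above the controls in H2009, by 0.49 ± 0.12, and below them in H1299, where the difference was -0.12, and neither difference passed (limma adjusted p = 0.343 and 0.936). The difference between the lines was -0.61 ± 0.16 (limma adjusted p = 0.855). In H2009 the mean of the 6 endothelial markers was 4.90 with PTK7 hairpins and 4.70 with control hairpins. There CDH5, CLDN5, EGFL7 and ESAM lay higher on both PTK7 arrays than on both controls, as 26% of all genes did. The means of CDH5 were 4.24 with PTK7 and 4.07 with control hairpins. PECAM1, at means of 3.67 and 3.46, and VWF, at 3.64 and 3.58, overlapped between the hairpin kinds. The part of these values in the FLT4 difference was not tested.

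**Figure D3:**
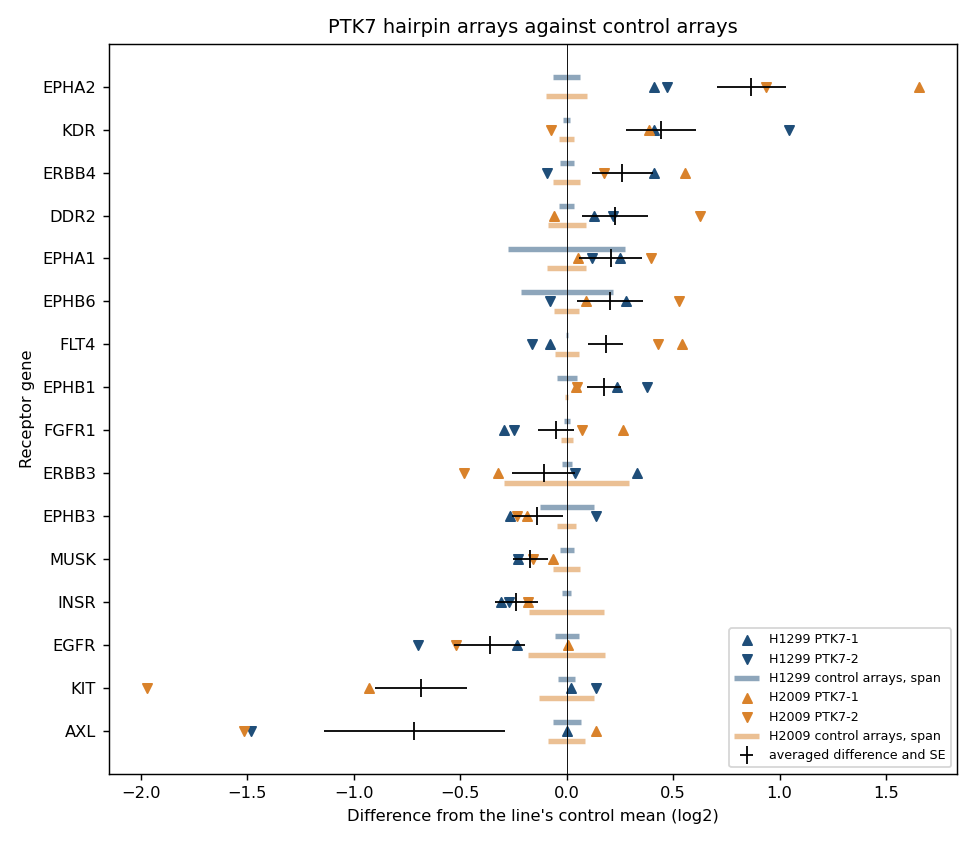
For the 16 receptors named for the averaged comparison, triangles show each PTK7 array minus its line's mean control value in log2 units, pale bars the span of the 2 control arrays around that mean, and black marks the averaged difference with its standard error. EPHA2 is the only gene with all 4 triangles at or beyond 0.4, and for AXL the PTK7-2 arrays lie near -1.5 while the PTK7-1 arrays lie near 0.

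Among the other receptors nearest to the threshold, EGFR lay below both controls on both PTK7 arrays of H1299 and overlapped them in H2009, with an averaged difference of -0.36 ± 0.17 (limma adjusted p = 0.546). INSR, the insulin receptor, read 6.14 and 6.19 with the PTK7 hairpins and 6.43 and 6.48 with the control hairpins in H1299 and 5.81 and 5.81 with the PTK7 hairpins and 5.81 and 6.17 with the control hairpins in H2009. Its averaged difference was -0.24 ± 0.10, and in H2009 the GFP array met the PTK7 arrays to 2 decimals. EPHB1 was 0.18 ± 0.08 and MUSK, the receptor that agrin acts on at the neuromuscular junction, -0.17 ± 0.08. The remaining named receptors were ERBB4 at 0.26, DDR2, a fibrillar collagen receptor, at 0.23, EPHA1 at 0.21 and EPHB6, whose kinase is inactive, at 0.20. A second, dimmer probe set of DDR2 gave -0.05. Lower on average were EPHB3 at -0.14, ERBB3 at -0.11 and FGFR1 at -0.05. All 16 lay at a limma adjusted p of 0.19 or above.

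Within H1299, 1 gene of all passed, 0.00543%, and no receptor did (limma). At an unadjusted p under 0.05 KDR and EPHB1 were higher, at 0.73 ± 0.23 and 0.31 ± 0.12, which is 4.44% of the receptors against 7.48% of all genes. In H2009 no gene and no receptor passed (limma), and EPHA2, FLT4 and KIT were below an unadjusted p of 0.05, 6.67% of the receptors against 7.98% of all genes. Blocking by hairpin called no receptor in H1299, where it called 0.0217% of all genes, and none in H2009, where it called 0%. Both PTK7 arrays lay above both controls for 9 receptors in H1299, against 15.6% of all genes, and for 12 in H2009, against 26%. They lay below both for 9 in H1299, against 16.1%, and for 7 in H2009, against 18.9%. Other receptors named in H1299 were EPHB4 at 0.32 ± 0.14, EPHA7 at 0.33 ± 0.36 and MERTK at -0.34 ± 0.20, and in H2009 MERTK at 0.40 ± 0.20, ERBB4 at 0.36 ± 0.20, NTRK3 at 0.25 ± 0.14, ERBB3 at -0.40 ± 0.21 and ERBB2 at -0.34 ± 0.29. For ERBB2 the PTK7-1 array alone lay below the H2009 controls.

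The knockdown differences of the lines did not pass the limma test of their difference for any receptor or any gene, and with the block for no receptor and 0.00543% of all genes. At an unadjusted p under 0.05 there were 6 receptors, 13.3%, against 5.17% of all genes: FLT4, KIT, EPHA2, FGFR1 at -0.44 ± 0.17, MERTK at -0.74 ± 0.29 and EPHB4 at 0.48 ± 0.20. Their limma adjusted p lay between 0.855 and 0.922. The PTK7 signal itself fell less in H1299, where it was dim with the control hairpins too, than in H2009. The part of that in these differences was not tested. Both PTK7 arrays lay beyond both controls in opposite directions in the lines for 6 receptors, against 5.66% of all genes.

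The hairpins against PTK7 were set against each other over both lines, which shows the receptors on which 2 hairpins with the same target part. AXL and IGF1R were higher and MET lower with PTK7-1 than with PTK7-2. These 3 of the 45 receptors passed, where 3.73% of all genes did, 1.94% higher and 1.79% lower. At an unadjusted p under 0.05 there were 8, 17.8% of the receptors, against 18.3% of all genes. The 2 control hairpins differed for no receptor and no gene (limma), with 0 receptors and 672 genes, 3.65%, at an unadjusted p under 0.05.

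AXL, a receptor for GAS6 known from mesenchymal tumour cells, parted the hairpins most. It read 11.16 with PTK7-1, 9.68 with PTK7-2, 11.10 with GFP and 11.23 with LUC in H1299. In H2009 it read 9.75 with PTK7-1, 8.10 with PTK7-2, 9.70 with GFP and 9.53 with LUC. With PTK7-2 it lay far below every other array of the same line, and with PTK7-1 it lay among or just above the controls. The PTK7-1 minus PTK7-2 difference was 1.57 ± 0.14 (limma adjusted p = 0.00628), or 2.97-fold. Each PTK7 hairpin was also set against the same control arrays: PTK7-2 minus controls was -1.5 ± 0.12 (limma adjusted p = 0.00582), the one receptor called where 2.15% of all genes were (6 receptors and 16.8% of all genes were below an unadjusted p of 0.05), and PTK7-1 minus controls was 0.07 ± 0.12 (limma adjusted p = 0.917). The blocked average of -0.72 ± 0.10 (limma adjusted p = 0.0465) thus holds a value near 0 and one near -1.5, and without the block it was -0.72 ± 0.43 (limma adjusted p = 0.648).

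**Figure D4:**
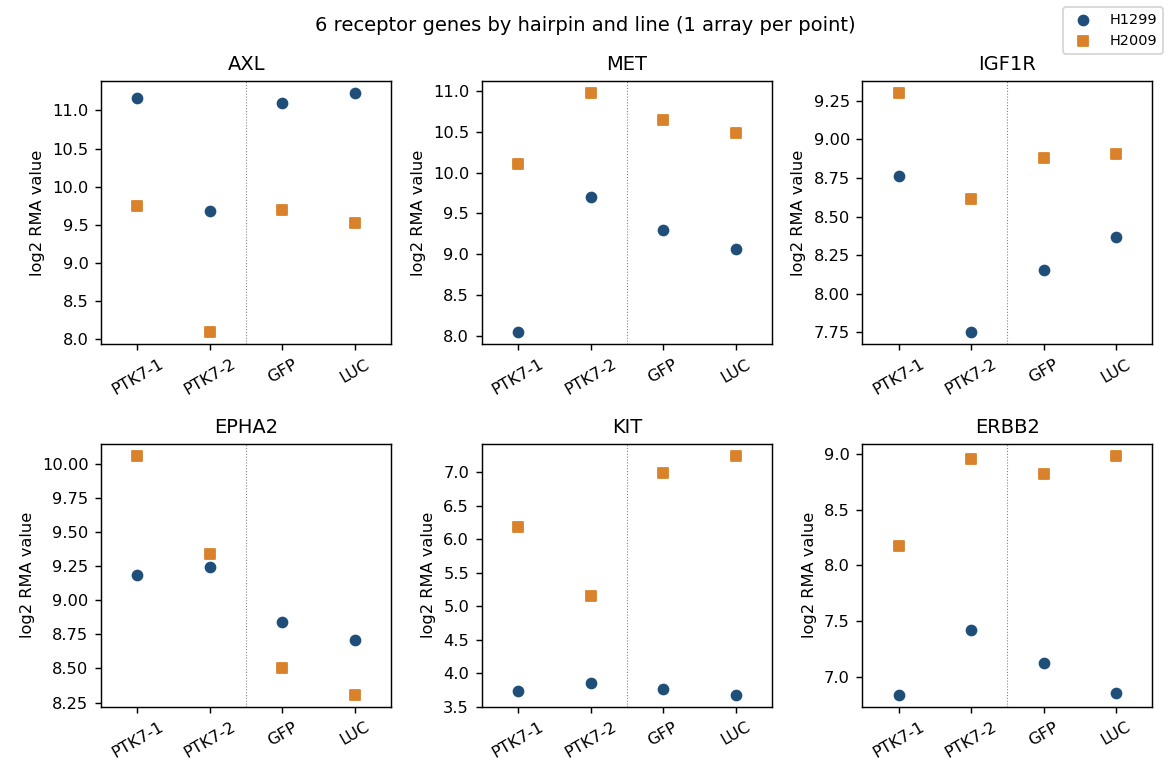
Each panel shows 1 receptor gene, with the log2 RMA value on the y axis and the hairpin on the x axis, 1 point per array, circles for H1299 and squares for H2009, and a dotted line between PTK7 and control hairpins. AXL is low with PTK7-2 in both lines, MET is low with PTK7-1 in both, IGF1R is high with PTK7-1 and low with PTK7-2, and KIT separates the hairpin types in H2009 alone.

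MET, the receptor for hepatocyte growth factor, went the other way. In H1299 it read 8.04 with PTK7-1, 9.70 with PTK7-2, 9.30 with GFP and 9.06 with LUC. It read 10.11 with PTK7-1, 10.98 with PTK7-2, 10.64 with GFP and 10.49 with LUC in H2009. The PTK7-1 array was the lowest and the PTK7-2 array the highest of each line. PTK7-1 minus PTK7-2 was -1.27 ± 0.20 (limma adjusted p = 0.0208). Against the shared controls PTK7-1 was -0.80 ± 0.18 and PTK7-2 was 0.47 ± 0.18, and neither passed (limma adjusted p = 0.0864 and 0.232). No receptor passed for PTK7-1 minus controls, where 1.23% of all genes did, and 6 receptors were below an unadjusted p of 0.05, against 12.9% of all genes.

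IGF1R, the receptor for insulin-like growth factors, read 8.76 with PTK7-1, 7.75 with PTK7-2, 8.15 with GFP and 8.37 with LUC in H1299. In H2009 the values were 9.30 with PTK7-1, 8.61 with PTK7-2, 8.88 with GFP and 8.90 with LUC. In both lines PTK7-1 was the highest array and PTK7-2 the lowest. The difference between them was 0.85 ± 0.14 (limma adjusted p = 0.0235), and a second probe set of IGF1R gave 1.36 (limma adjusted p = 0.00769). PTK7-1 minus controls was 0.45 ± 0.12 and PTK7-2 minus controls -0.40 ± 0.12, neither past the threshold (limma adjusted p = 0.153 and 0.152). The second probe set gave 0.70 and -0.66, both past it (limma adjusted p = 0.0439 and 0.0393), so the call against the controls depends on the probe set. The p-values of the second probe set come from a limma fit adjusted over all 19158 probe sets with a single symbol. In that fit the first probe set had limma adjusted p of 0.0261 between the hairpins and 0.161 and 0.159 against the controls.

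These 3 calls, like those of all genes, leaned on single arrays. Without H1299 PTK7-1 none of the 18404 genes passed, against 686 with every array, and so none of the 3 receptors, with AXL at 1.64, MET at -0.91 and IGF1R at 0.76 (limma adjusted p of 0.0623, 0.118 and 0.185). Without H1299 PTK7-2, when 97 of all genes passed, AXL was the one receptor that did. IGF1R was also lost without H2009 PTK7-1 (0.100), H1299 GFP or H2009 GFP (0.0624 each, limma adjusted p).

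Other receptors named for this comparison did not pass. ERBB2 was -0.68 ± 0.20 (limma adjusted p = 0.109), ERBB4 0.44 ± 0.14 (0.135) and DDR2 -0.39 ± 0.17 (0.278), all PTK7-1 minus PTK7-2. For DDR2 the second probe set gave -0.08. ERBB2 read 6.84 with PTK7-1, 7.43 with PTK7-2, 7.13 with GFP and 6.85 with LUC in H1299, and its lowest H2009 array was PTK7-1. Against the shared controls, EGFR was -0.61 ± 0.14 with PTK7-2 and EPHA2 was 1.03 ± 0.25 with PTK7-1 and 0.70 ± 0.25 with PTK7-2 (limma adjusted p = 0.0765, 0.113 and 0.208). EPHA2 thus stood above the controls with both hairpins, unlike AXL, MET and IGF1R. GFP minus LUC was largest for EPHA1, at -0.37 ± 0.17, then INSRR at -0.25 ± 0.14 and LTK at -0.24 ± 0.15, among the receptors named for it, and FGFR4 at 0.20 ± 0.18, MET at 0.19 ± 0.20 and TYRO3 at 0.14 ± 0.13 on the higher side.

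The windows before AXL and MET are shown as the receptors on which the PTK7 hairpins parted in opposite directions. AXL, the first of 2 RefSeq starts, is at chr19:41218973-41219222 and MET at chr7:116671946-116672195, both on the plus strand of GRCh38.p14, with E-boxes and GC boxes in capitals.
AXL: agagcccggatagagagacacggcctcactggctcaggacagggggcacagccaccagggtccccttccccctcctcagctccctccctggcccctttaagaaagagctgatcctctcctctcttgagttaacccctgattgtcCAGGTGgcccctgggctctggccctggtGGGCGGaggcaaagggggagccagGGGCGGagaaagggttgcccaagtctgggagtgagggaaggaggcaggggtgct
MET: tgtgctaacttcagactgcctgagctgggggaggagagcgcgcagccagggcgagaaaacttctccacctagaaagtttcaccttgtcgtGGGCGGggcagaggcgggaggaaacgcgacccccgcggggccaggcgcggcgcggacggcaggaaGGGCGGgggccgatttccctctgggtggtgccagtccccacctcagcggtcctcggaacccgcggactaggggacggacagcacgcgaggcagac
AXL held 1 E-box, and both windows held GC boxes. The E-box letters were not in the MET window.

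Genes around the receptors were counted from lists of adaptors, negative regulators, ephrins and other ligands. None of them passed for the averaged knockdown, with or without the block, against 0% of all genes without it and 0.81% with it. Ephrins, the ligands of EPH receptors, were higher in 7 of 8, with a median of 0.12 against 0.02 over all genes, EFNA3 at 0.52 ± 0.13 and EFNA1 at 0.34 ± 0.14 at the front. Other ligands were higher in 19 of 28 measured, with a median of 0.08: PROS1, a ligand of the TAM receptors, was 0.50 ± 0.11, PGF, a VEGF relative, 0.42 ± 0.11 and PDGFD -0.47 ± 0.17. Adaptors were higher in 8 of 17 measured, with a median of -0.02, and PTPN11, the SHP2 phosphatase, was 0.38 ± 0.12 and GAB1, the docking protein downstream of MET, -0.28 ± 0.13. Negative regulators were higher in 9 of 17, with a median of 0.02. SPRY4, a feedback inhibitor of RAS signalling, was 0.74 ± 0.20 (limma adjusted p = 0.293), made up of -0.06 ± 0.29 in H1299, where PTK7 and control arrays overlapped, and 1.54 ± 0.29 in H2009. SPRY2, its relative, was -0.43 ± 0.14.

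Between the PTK7 hairpins, CBL, the ubiquitin ligase that sends activated receptors to degradation, was 0.96 ± 0.13 and SOCS2, a suppressor of cytokine signalling, 0.78 ± 0.15, and CSF1, the ligand of CSF1R, was -1.12 ± 0.18 (limma adjusted p = 0.0129, 0.0341 and 0.0209). CBL read 9.35 with PTK7-1, 8.49 with PTK7-2, 9.33 with GFP and 9.13 with LUC in H1299. In H2009 it read 8.88 with PTK7-1, 7.82 with PTK7-2, 8.70 with GFP and 8.50 with LUC, again lowest with PTK7-2 as AXL was. These were 2 of 17 negative regulators and 1 of 28 other ligands, and none of the 17 adaptors and none of the 8 ephrins passed between the hairpins (limma), where 3.73% of all genes did. Between the lines, under PTK7 hairpins, 2 adaptors, 4 negative regulators, 1 ephrin and 5 other ligands were higher in H1299 and 3 adaptors, 2 negative regulators, 2 ephrins and 5 other ligands lower, against 13.2% and 11.3% of all genes. Under control hairpins 4 adaptors, 5 negative regulators, 1 ephrin and 5 other ligands were higher and 4 adaptors, 2 negative regulators, 3 ephrins and 3 other ligands lower, against 12.5% and 12.3% of all genes (limma). The lists hold 17 adaptors, 17 negative regulators, 8 ephrins and 28 other ligands. EFNB2, a ligand of EPHB3, EPHB4 and EPHA4, was one of these, between 5.19 and 5.75 in H1299 and between 9.71 and 9.97 in H2009.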

How the data were processed

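The authors deposited log2 signals, 1 per probe set and array, from RMA and R 2.14.0, per the submitters' processing notes. The array annotation build and the hairpin sequences were not given in the sources used here. Of 32321 probe sets, 19158 had a single symbol, and the brightest per gene left 18404 genes. Array medians lay between 5.31 and 5.41, and the number of arrays limits the precision. Detection calls were not used.

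Fits used limma 3.58.1 (R 4.3.3), with group means over 8 arrays for lines and knockdown and with hairpin plus line for hairpins, after tests on simulated data. Both lines received the same hairpins, per the labels, and arrays of the same hairpin deviated together, with r between lines of 0.407 for PTK7 and 0.230 for control hairpins. Hairpin was therefore also fitted as a block. Without it, the averaged knockdown fit counts arrays of the same hairpin in both lines as independent. With it, the spread between hairpins leaves the knockdown error, and the p-values do not reach other hairpins. Alternatives were other normalizations, a filter on dim genes, other priors, the mean of probe sets, fewer arrays and each array left out. The members and lists were chosen with earlier results of these data known.

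Named were receptors past the threshold in both line comparisons, up to 8 per direction by smallest p for the averaged knockdown, up to 5 per direction in each line, 5 for the difference between lines, and those past the threshold, filled to 3 per direction, between hairpins. The same limits served PTK7-1 and PTK7-2 against controls. Pathway lists were named by up to 4 genes. AXL, MET, IGF1R, EPHB4 and FLT4 in the line comparisons, EPHB4 in the difference between lines, EFNB2, and CBL, SOCS2 and CSF1 between hairpins were chosen after their values were seen. Promoters are from RefSeq on GRCh38.p14. Figures used matplotlib 3.10.9 in Python 3.11.15.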

Additional observations from a re-analysis of the deposited data

Results flagged for a closer look

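For 6 receptors the PTK7 arrays both lay on one side of both control arrays in H1299 and both on the other side in H2009, against 5.66% of all genes. The H1299 minus H2009 difference of the knockdown effects was 0.59 for ERBB3, -0.74 for MERTK, -0.44 for FGFR1, -0.15 for FGFR2, -0.61 for FLT4 and 0.48 for EPHB4. The limma interaction test passed for none of the 6. Some of these separations were near ties. In H1299 FGFR2, dim throughout, read 3.8514 with PTK7-2 and 3.8515 with GFP, and ERBB3 read 5.31 with PTK7-2 and 5.30 with GFP. FGFR1 read 8.59 and 8.64 with the PTK7 hairpins and 8.90 and 8.87 with the control hairpins in H1299, where PTK7 arrays were lower. In H2009, where FGFR1 was dim, it read 5.53 and 5.34 with the PTK7 hairpins and 5.24 and 5.30 with the control hairpins, with PTK7 arrays higher. MERTK, a receptor for GAS6 and protein S, read 8.63 and 8.68 with the PTK7 hairpins and 8.87 and 9.12 with the control hairpins in H1299. In H2009 it read 9.35 and 8.79 with the PTK7 hairpins and 8.56 and 8.79 with the control hairpins, with the LUC array equal to the PTK7-2 array to 2 decimals. EPHB4, the receptor for ephrin-B2, read 8.69 and 8.44 with the PTK7 hairpins and 8.13 and 8.35 with the control hairpins in H1299 and 8.04 and 7.94 with the PTK7 hairpins and 8.19 and 8.12 with the control hairpins in H2009.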

How the results depend on the processing

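Over 1430 recomputations of the named receptors' values, 1388 kept their direction and their side of the threshold, 38 kept the direction and lost the call, 2 gained it and 2 reversed. Most of the named results were uncalled to begin with, in comparisons that called few genes or none, and could hardly change side. Lost calls could come only from the results called at first, so the total does not measure how firmly calls held. The reversals were ERBB2 in the H2009 knockdown, which ran from -0.73 to 0.052 over the arrays left out, highest without H2009 PTK7-1, and ERBB3 in the averaged knockdown, which ran from -0.26 to 0.039, highest without H2009 LUC. Counts of called receptors moved by over 1.5 times in 4 comparisons, and in the line comparisons by less, to between 9 and 16 under PTK7 hairpins and between 9 and 19 under control hairpins, against 13 in each. With the hairpin as replicate block the averaged knockdown called 1 receptor, AXL, in place of 0. With a trended prior PTK7-1 minus controls called 1, MET (limma adjusted p = 0.0344). With 1 array left out, PTK7-1 minus PTK7-2 called 0 to 3 receptors (0 to 943 of 18404 genes) and PTK7-2 minus controls 1 to 2 (18 to 545 genes). The block changed no other count by over 1.5 times, and the cause of these changes was not tested. DDR1 lost its line calls with the mean of its probe sets, at -0.14 under PTK7 and -0.42 under control hairpins. With the PTK7 arrays alone in the fit, chosen after seeing the data, 9 receptors and 2544 genes were called under PTK7 hairpins, with ERBB2, NTRK2 and TYRO3 among those lost, and with the control arrays alone 19 receptors and 6581 genes under control hairpins. Median centring moved the median of all genes to 0.11 in the control line difference, against 0.06 as deposited. Hairpin contrasts took no block, since their fit already holds the hairpin. With 2 arrays a group and dim receptors compressed by RMA, small differences of most receptors could not be resolved.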
